A study of Mus musculus with 6 samples.

Results

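The genes described here mark blood and lymph vessels or make and read the signals that direct vessel growth. They were chosen by symbol from a list of 34 vessel markers, angiogenic ligands and receptors, and all 34 were found among the 37924 genes of the deposited table. Their transcripts were measured by RNA sequencing in 6 libraries of whole mouse ovary at postnatal day 14. The cKO group held 3 libraries from mice homozygous for a floxed allele and carrying Gdf9iCre, a Cre recombinase under the oocyte promoter Gdf9. The design is a deletion in oocytes, so vessel cells are not the cells in which the recombinase is driven, and the deletion itself was not checked here. The control group held 3 libraries from mice homozygous for the same floxed allele without the recombinase. Both groups were of the strain C57BL/6J/129S7/SvEvBrd, and every library pooled 1 ovary from each of 3 mice. The libraries are called cKO 1 to 3 and control 1 to 3, where the numbers only name them.

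Blood vessels of the ovary run in the stroma and the theca layer and stop at the basement membrane of the follicle, so the granulosa cells and the oocyte inside receive no vessels of their own. Vessel growth is started mainly by VEGF ligands acting on receptors of endothelial cells, and vessels are kept stable by angiopoietin signalling through the Tie receptors. Lymph vessels are directed by a separate VEGF ligand and receptor pair and by the transcription factor PROX1. As a follicle grows its theca layer gains capillaries, which bring hormones and carry steroids away.

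Vessel transcripts were present in every library. Angpt1, the ligand that activates the Tie2 receptor, rose in cKO ovaries, and none of the other 33 members passed the test in either direction. All 34 members passed the filter on low values (a mean of at least 0.5 FPKM), so 1 of 34 rose (2.94%), against 2.24% of the 14934 genes tested, and 0 fell, against 2.09%. FPKM counts fragments per kilobase of transcript and per unit of library size. A gene passed when its adjusted p from limma, over all genes tested, was below 0.05. Changes are given as cKO minus control in log2(FPKM + 1), a scale on which differences of low genes come out too small. The share of members that rose was close to the share of all genes, so this count sets nothing apart. A member that did not pass is not thereby shown to be equal in the 2 groups.

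Below that threshold most members lay slightly higher in cKO ovaries. The log2 change was positive for 29 of 34 members (85.3%), against 58.5% of all genes tested. Shares near that of the members were found in lists of other ovarian cells described below. They were 87.5% of theca genes, 87.5% of stroma genes and 83.3% of surface epithelium genes. The shares were 45.5% of macrophage genes and 23.1% of granulosa genes. A high share of positive changes was thus not particular to vessel genes. The median change of the members was 0.25 on the log2 scale and that of all genes was 0.05. For 13 members (38.2%) every cKO library lay above every control library, against 18.0% of all genes, and for 2 members (5.88%) every cKO library lay below, against 12.0%. At an unadjusted p below 0.05 there were 10 members higher and 1 lower, against 14.5% and 9.80% of all genes. The members share cells and pathways, so they are not independent, and no test was made over the list. In whole tissue, a different number of vessel cells and a different amount of RNA per vessel cell cannot be told apart.

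**Figure D1:**
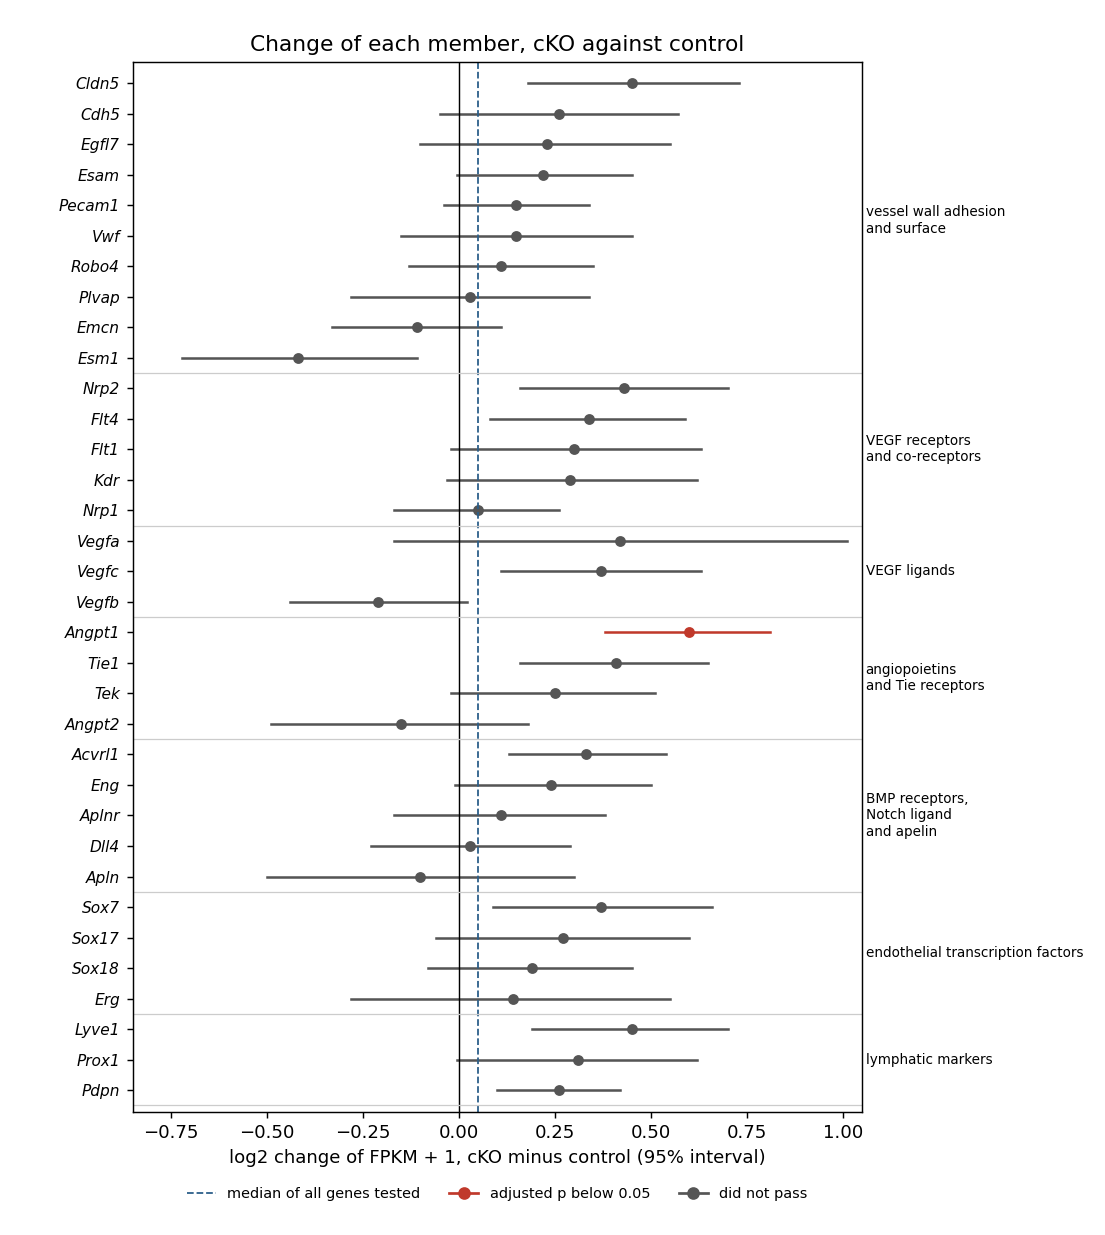
Log2 change (cKO minus control, on the log2(FPKM + 1) scale) of each of the 34 members with its 95% confidence interval, grouped by role; the dashed line is the median of all genes tested, 0.05. The interval of Angpt1, from 0.38 to 0.81, belongs to the 1 member that passed, and 5 members lie below 0.

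The angiopoietins compete for the Tie2 receptor, which is encoded by Tek and acts with its relative Tie1. Angpt1, made by cells around the vessel, activates the receptor, and Angpt2, made by endothelial cells, can block it. Angpt1 measured 9.30, 7.86 and 9.01 FPKM in cKO 1 to 3, against 5.37, 5.31 and 5.58 FPKM in control 1 to 3. The lowest cKO library was well above the highest control library. The means were 8.73 ± 0.76 FPKM in cKO and 5.42 ± 0.14 FPKM in control (SD, n = 3 each), a ratio of 1.61. On the log2 scale the change was 0.60 (SE 0.09), at an adjusted p of 0.0244. Angpt1 lies on chromosome 15 (mm10, 42424723 to 42676977, minus strand) and shares 737 exon bases with Gm17473 on the opposite strand, so part of its value can come from that gene. The call depended on the libraries included. The adjusted p was 0.1 without cKO 1, 0.0538 without cKO 3, 0.125 without control 1 and 0.135 without control 2, while the log2 change stayed between 0.55 and 0.66 over all fits that left out 1 library.

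Angpt2 measured 4.76, 6.18 and 6.48 FPKM in cKO ovaries, against 6.41, 7.67 and 5.58 FPKM in control ovaries, and the groups overlapped. Its log2 change was -0.15, with an interval from -0.49 to 0.18. The ratio of Angpt1 to Angpt2, both per length, was 1.96, 1.27 and 1.39 in cKO 1 to 3 and 0.838, 0.692 and 1.00 in control 1 to 3. Every cKO ratio lay above every control ratio. The ratio holds the values of Angpt1, which passed, so it is not a separate result. Tie1 measured 12.8, 11.2 and 10.1 FPKM in cKO, against 7.86, 8.08 and 8.96 FPKM in control, with no overlap, a log2 change of 0.41 and an adjusted p of 0.0758. Tek averaged 6.07 ± 0.88 FPKM in cKO and 4.93 ± 0.22 FPKM in control (SD, n = 3 each), and cKO 3, at 5.09 FPKM, lay within the control range.

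**Figure D2:**
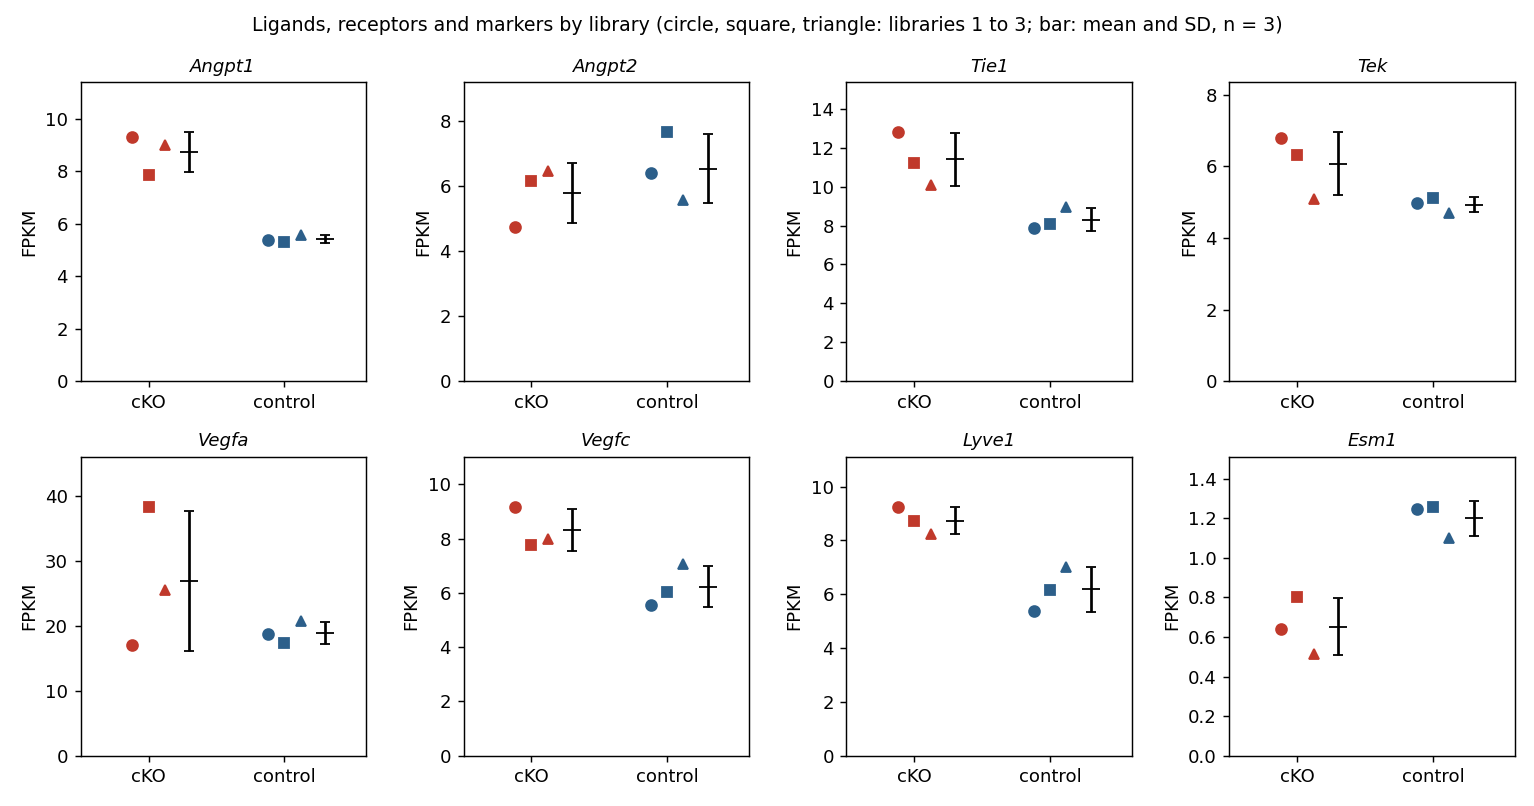
FPKM (linear axis from 0) of 8 members in each library, with cKO left of control; the bar beside the points is the mean and SD of 3 libraries. Angpt1, Tie1, Vegfc and Lyve1 are higher in every cKO library, Esm1 is lower in every one, and Vegfa is spread from 17.0 to 38.4 FPKM among the cKO libraries.

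Among the VEGF ligands the 3 members went different ways and none passed. VEGF-A, the main growth signal for blood vessels, is made in the ovary by granulosa and theca cells among others. Vegfa measured 17.0, 38.4 and 25.5 FPKM in cKO 1 to 3, against 18.8, 17.3 and 20.7 FPKM in control. The cKO libraries thus spanned the whole control range, with cKO 1 below every control, and the interval of the log2 change ran from -0.17 to 1.01. The order of Vegfa among the cKO libraries matched that of the summed FPKM of 12 genes of the ovarian surface epithelium. The sum was 99.5, 243 and 166 in cKO 1 to 3 and 131, 138 and 147 in control 1 to 3. Among the control libraries the order of the sum and that of Vegfa differed. This was 1 of 14 other lists, and 3 libraries allow few orders, so the match carries little weight. Some genes of that list had another order. The part of the surface epithelium in the Vegfa values was not tested.

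Vegfc, which encodes the ligand of lymph vessel growth, measured 9.18, 7.75 and 7.99 FPKM in cKO, against 5.57, 6.04 and 7.07 FPKM in control. Its groups did not overlap, with a log2 change of 0.37, an interval from 0.11 to 0.63 and an adjusted p of 0.103. Vegfb, whose product binds VEGF receptor 1 but not receptor 2, was the most abundant of the 3 in control ovaries, at 42.5, 41.7 and 38.5 FPKM, and measured 37.0, 30.9 and 38.2 FPKM in cKO. It was 1 of the 2 members for which every cKO library lay below every control. The gap between cKO 3 and control 3 was small, and the log2 change of -0.21 had an adjusted p of 0.243.

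All 5 VEGF receptors and co-receptors had a positive change, with a median of 0.30 on the log2 scale, and none passed. Nrp2, a neuropilin that serves as co-receptor for VEGF-C, measured 16.2, 13.4 and 12.4 FPKM in cKO, against 9.91, 11 and 9.37 FPKM in control. Its groups did not overlap, at a log2 change of 0.43 and an adjusted p of 0.0815. Flt4, which encodes VEGF receptor 3 of lymphatic and sprouting endothelium, measured 5.95, 5.79 and 4.70 FPKM in cKO and 3.90, 4.25 and 4.18 FPKM in control. It too was higher in every cKO library, with a log2 change of 0.34 and an adjusted p of 0.117. Nrp1, the neuropilin that binds VEGF-A, measured 13.8, 13.8 and 12.1 FPKM in cKO, against 12, 13.7 and 12.7 FPKM in control. Its groups overlapped, and the interval of its log2 change ran from -0.17 to 0.26.

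Kdr, which encodes the main signalling receptor VEGF receptor 2, averaged 9.56 ± 1.92 FPKM in cKO and 7.53 ± 0.54 FPKM in control (SD, n = 3 each). Flt1, which encodes VEGF receptor 1, a receptor that can hold VEGF-A back from VEGF receptor 2, averaged 3.44 ± 0.71 FPKM in cKO and 2.57 ± 0.10 FPKM in control (SD, n = 3 each). For both, cKO 1 and cKO 2 lay above all controls and cKO 3 within the control range, at 7.75 FPKM for Kdr and 2.63 FPKM for Flt1. The ratio of Kdr to Flt1 was 2.47, 2.96 and 2.95 in cKO and 2.94, 2.65 and 3.22 in control, so the balance of the 2 receptors overlapped between the groups.

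Eng and Acvrl1 encode endoglin and ALK1, a co-receptor and a receptor for BMP ligands of the blood that keep vessels quiescent. Acvrl1 measured 9.75, 9.90 and 8.65 FPKM in cKO, against 6.92, 7.56 and 7.33 FPKM in control. The groups did not overlap, at a log2 change of 0.33 and an adjusted p of 0.0799. Eng measured 50.2, 40.5 and 40.8 FPKM in cKO, against 35.9, 40.5 and 33.9 FPKM in control. The lowest cKO library and the highest control library were nearly equal, and the adjusted p was 0.23. Aplnr, the apelin receptor of veins and sprouts, measured 17.9, 16.6 and 14.2 FPKM in cKO, against 16.0, 16.0 and 13 FPKM in control. It overlapped between the groups, as did the apelin gene Apln, from 2.5 to 4.40 FPKM in cKO and from 3.21 to 4.0 FPKM in control. The Notch ligand gene Dll4, a marker of arteries and sprout tips, averaged 2.23 ± 0.24 FPKM in cKO and 2.16 ± 0.07 FPKM in control (SD, n = 3 each), and its log2 change of 0.03 had an interval from -0.23 to 0.29.

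ETS factors such as ERG, a member, bind sites that can read GGAAGT. Other forms of ETS site were not searched for or marked. The 250 bases before the start of 3 receptor genes that hold GGAAGT are shown, for the receptors Kdr, Flt1 and Eng described above. They read 5′ to 3′ on the gene's strand, with the match in capitals (ACTTCC where it lies on the other strand). They are RefSeq's, build GRCm38.p6, at chr5:75978456-75978705 (minus strand), chr5:147726012-147726261 (minus strand) and chr2:32646345-32646594 (plus strand).
Kdr: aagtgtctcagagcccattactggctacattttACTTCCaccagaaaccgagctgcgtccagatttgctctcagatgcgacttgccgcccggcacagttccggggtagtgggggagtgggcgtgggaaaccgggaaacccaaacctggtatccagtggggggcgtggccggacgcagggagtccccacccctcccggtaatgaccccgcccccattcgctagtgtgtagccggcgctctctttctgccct
Flt1: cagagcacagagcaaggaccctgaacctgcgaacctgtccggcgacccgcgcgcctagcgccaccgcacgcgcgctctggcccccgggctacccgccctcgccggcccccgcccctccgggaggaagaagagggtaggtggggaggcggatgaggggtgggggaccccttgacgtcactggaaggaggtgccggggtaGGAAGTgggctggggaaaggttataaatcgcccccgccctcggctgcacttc
Eng: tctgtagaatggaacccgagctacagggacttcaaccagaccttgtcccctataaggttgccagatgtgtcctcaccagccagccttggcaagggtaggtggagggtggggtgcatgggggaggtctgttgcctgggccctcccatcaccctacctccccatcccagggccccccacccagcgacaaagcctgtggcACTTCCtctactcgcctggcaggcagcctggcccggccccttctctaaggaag
The first base of the match lies 217 bases before the start of Kdr, 52 before that of Flt1 and 53 before that of Eng. A promoter was listed for 21 of the 34 members, and none was listed for Angpt1. GGAAGT was found on either strand in 5 of the 21, Kdr, Flt1, Eng, Tie1 and Egfl7 (23.8%), against 22.2% of 27025 genes. The sequences of Tie1, also a receptor gene, and Egfl7 are not shown. A second motif, ACGTG, the core bound by hypoxia-inducible factors, was found in 2 of the 21 (9.5%), Vegfa and Pdpn, against 18.5% of all genes. ACAATG, a sequence bound by SOX factors, was found in 1 of the 21, Erg (4.8%), against 12.2%. These are matches of letters and not binding sites, and the share of the first was near that of all genes.

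The 4 transcription factor genes had positive changes and none passed. Sox7, Sox17 and Sox18 encode the related SOX factors that set endothelial and arterial identity. Sox7 measured 2.95, 2.26 and 2.29 FPKM in cKO, against 1.57, 1.75 and 1.77 FPKM in control. It was higher in every cKO library, with a ratio of means of 1.48, a log2 change of 0.37 and an adjusted p of 0.123. Sox18 measured 40.8, 33.8 and 31.0 FPKM in cKO, against 33.2, 28.6 and 30.2 FPKM in control, and the groups overlapped. Sox18 was the most abundant of the 4 in every library. Sox17 averaged 3.02 ± 0.27 FPKM in cKO and 2.36 ± 0.55 FPKM in control (SD, n = 3 each), and it shares 804 exon bases with Gm37587 on the opposite strand. Erg measured 3.98, 6.45 and 4.30 FPKM in cKO, against 4.60, 4.88 and 3.51 FPKM in control, with cKO 2 alone above the controls.

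The 10 genes of the vessel wall held both directions. Cldn5, which encodes the claudin of endothelial tight junctions, measured 31.7, 26.2 and 29.5 FPKM in cKO, against 17.9, 22.9 and 22.4 FPKM in control. All cKO libraries were above all controls, with a log2 change of 0.45 and an adjusted p of 0.0753. Egfl7, a secreted endothelial factor whose gene hosts a microRNA, measured 36.3, 50.6 and 52.1 FPKM in cKO, against 37.6, 38.0 and 41.4 FPKM in control. Only cKO 2 and cKO 3 lay above the controls, and the gene shares exon bases with 4 others. Emcn, the sialomucin of capillaries and veins, measured 27.2, 24.0 and 22.5 FPKM in cKO and 25.3, 28.4 and 26.1 FPKM in control. It was among the 5 members with a negative change, at -0.11, and the groups overlapped.

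Esm1, which encodes the proteoglycan endocan of sprout tip cells, was the member with the most negative change. It measured 0.639, 0.801 and 0.515 FPKM in cKO, against 1.25, 1.26 and 1.10 FPKM in control. The groups did not overlap, the ratio of means was 0.541 and the log2 change was -0.42, with an adjusted p of 0.111. Esm1 was also the lowest member, and its values stand for an estimated 25 to 55 fragments per library, so counting error is larger here than for the others, which had at least 109.

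The 6 other genes of the vessel wall had positive changes, and none passed. Pecam1, an adhesion molecule at contacts between endothelial cells, averaged 20.9 ± 1.46 FPKM in cKO and 18.7 ± 0.84 FPKM in control (SD, n = 3 each), a ratio of 1.12, and the groups overlapped. Cdh5, the cadherin of the same contacts, averaged 27.9 ± 5.47 FPKM in cKO and 22.9 ± 0.71 FPKM in control (SD, n = 3 each), a ratio of 1.22, with cKO 1 at 33.9 FPKM and cKO 3 at 23.2 FPKM. The interval of its log2 change ran from -0.05 to 0.57. Esam, another adhesion molecule, averaged 23.8 ± 2.88 FPKM in cKO and 20.2 ± 0.44 FPKM in control (SD, n = 3 each), a ratio of 1.18 with no overlap and an adjusted p of 0.214. Vwf, the clotting factor stored in endothelial granules, ranged from 2.69 to 3.01 FPKM in cKO and from 2.02 to 2.94 FPKM in control. Robo4, a receptor that stabilises vessels, ranged from 4.12 to 4.19 FPKM in cKO and from 3.35 to 4.15 FPKM in control. Plvap, which forms the diaphragms of fenestrated capillaries, averaged 8.78 ± 1.09 FPKM in cKO and 8.63 ± 1.43 FPKM in control (SD, n = 3 each), and its log2 change of 0.03 turned negative in 7 of 17 alternative fits.

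**Figure D3:**
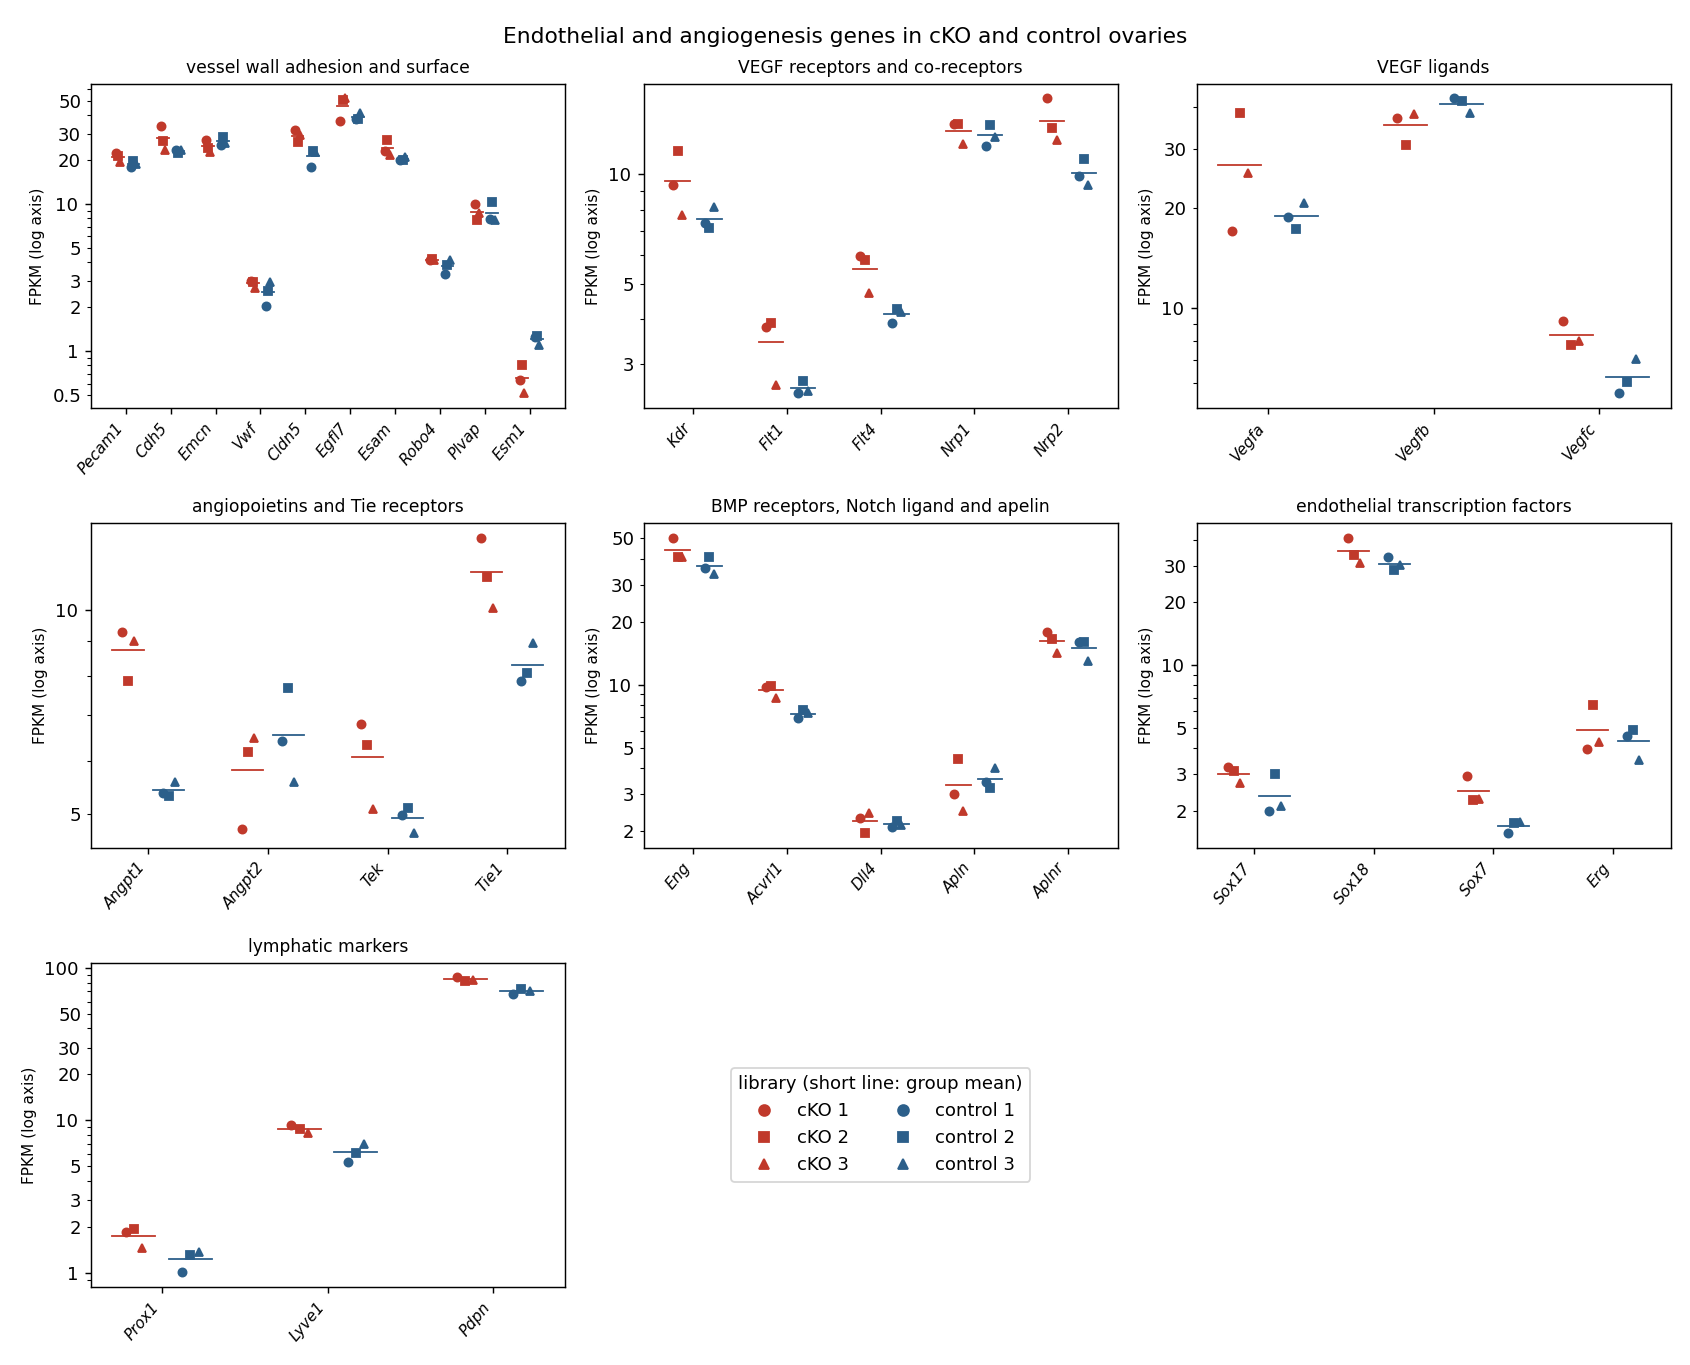
FPKM (log axis) of all 34 members by library and role, with cKO left of control and short lines at the group means. Levels run from 0.515 FPKM for Esm1 to 86.4 FPKM for Pdpn, and all 3 lymphatic markers are higher in every cKO library.

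For the 3 lymphatic markers every cKO library lay above every control library, a pattern that 18.0% of all genes showed, and none passed. Lyve1, a hyaluronan receptor of lymph vessels and of some macrophages, measured 9.26, 8.73 and 8.24 FPKM in cKO, against 5.37, 6.14 and 7.02 FPKM in control. Its log2 change was 0.45 with an interval from 0.19 to 0.70 and an adjusted p of 0.0655, and it passed at 0.0499 without control 3. Pdpn, a mucin-type protein of lymph vessels and also of mesothelium and stroma, measured 86.4, 82.3 and 83.2 FPKM in cKO, against 67.8, 72.3 and 70.1 FPKM in control. It was the most abundant member, its spread within groups was small, and its log2 change was 0.26 with an adjusted p of 0.0787. Prox1, the master factor of lymphatic fate, measured 1.85, 1.95 and 1.47 FPKM in cKO, against 1.01, 1.31 and 1.37 FPKM in control. The lowest cKO and highest control values were close, and the adjusted p was 0.213.

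Cells other than lymph vessels that carry these markers were measured through their own genes. Most of the stroma list was higher along with Pdpn: in 6 of its 8 genes (75%) every cKO library lay above every control, against 18.0% of all genes. Fbln1 of that list went the other way and fell, with a log2 change of -0.76. The median log2 change of the list was 0.41, and its summed level was 1322 to 1822 FPKM in cKO and 1103 to 1192 FPKM in control. The part of the stroma in the Pdpn values was not tested. Of 12 macrophage genes 11 were tested and 0 passed in limma, also 0 at an unadjusted p below 0.05, with a median log2 change of -0.01. Their summed level was 71.8 to 98.5 FPKM in cKO and 64.5 to 83.2 FPKM in control, and none was at 0 in any library. The complement gene C1qb averaged 14.8 ± 1.62 FPKM in cKO and 14.7 ± 2.14 FPKM in control (SD, n = 3 each). Lyz2, the lysozyme of macrophages and neutrophils, reached 48.2 FPKM in cKO 3 and was at most 23.1 FPKM in any other library. Of the 12 surface epithelium genes 0 passed, also at an unadjusted p, with the highest levels in Upk3b and Krt19, whose means in cKO were 41.8 and 34.3 FPKM and in control 33.6 and 25.3 FPKM.

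Among 8 other lymphatic genes 7 were found and 6 tested. Of these 1 fell and 0 rose, against 2.09% and 2.24% of all genes. Reln, which encodes the secreted protein reelin, fell to 4.32 ± 0.47 FPKM in cKO, against 7.06 ± 0.44 FPKM in control (SD, n = 3 each), with a log2 change of -0.60 and an adjusted p of 0.0307. Reelin is made by other ovarian cells too, and the gene shares 246 exon bases with Gm10475 on the opposite strand. Reln no longer passed without cKO 1, cKO 2, cKO 3, control 1 or control 2, or with libraries centred on reference genes. The 5 others had positive changes and did not pass.

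Other endothelial genes, a list of 38 of which 37 were tested, had a median log2 change of 0.27, against 0.25 for the members and 0.05 for all genes. Of the 37, 32 were positive, and in 22 (59.5%) every cKO library lay above every control, against 38.2% of the members and 18.0% of all genes. The difference between the 2 lists was not tested. There were 3 that rose (8.11%) and 0 that fell, against 2.24% and 2.09% of all genes. Cd34, a sialomucin of endothelium and also of stromal progenitor cells, rose to 114, 102 and 84.6 FPKM in cKO, against 58.1, 68.7 and 63.4 FPKM in control. Slco2a1, a prostaglandin transporter gene, rose to 6.30 ± 0.59 FPKM in cKO, against 3.81 ± 0.26 FPKM in control, and Ramp2, a partner of the adrenomedullin receptor, to 71.2 ± 4.97 FPKM in cKO, against 53.4 ± 1.15 FPKM in control (SD, n = 3 each). Adjusted p-values were 0.036, 0.0305 and 0.0369 for Cd34, Slco2a1 and Ramp2. Ramp2 shares 1103 exon bases with Vps25 on the same strand, so fragments of the 2 genes cannot be fully separated.

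In the list of other angiogenic ligands and inhibitors 15 of 19 genes were tested. Of these 3 rose (20%) and 2 fell, against 2.24% and 2.09% of all genes. Col18a1, a basement membrane collagen whose end fragment endostatin inhibits vessel growth, rose to 97.3, 66.7 and 68.8 FPKM in cKO, against 33.2, 30.7 and 36.7 FPKM in control. Its lowest cKO value was far above its highest control value, and the log2 change of 1.17 (SE 0.15, adjusted p = 0.0169) was the largest of the vessel genes described here. Vash1, which encodes the angiogenesis inhibitor vasohibin, rose to 3.99 ± 1.21 FPKM in cKO, against 1.73 ± 0.16 FPKM in control, and Angptl4, a secreted inhibitor of lipoprotein lipase with effects on vessels, to 76.8 ± 2.73 FPKM in cKO, against 49.6 ± 1.81 FPKM in control (SD, n = 3 each). Adjusted p-values were 0.0484 for Vash1 and 0.0122 for Angptl4. Pdgfb, the ligand that recruits pericytes, fell to 8.11, 8.05 and 9.0 FPKM in cKO, against 17.3, 17.4 and 11.1 FPKM in control, with control 3 nearest to the cKO libraries. Vegfd, listed under its older symbol Figf and encoding a relative of VEGF-C, fell to 6.16 ± 0.68 FPKM in cKO, against 9.83 ± 1.11 FPKM in control (SD, n = 3 each), at a log2 change of -0.60 and an adjusted p of 0.0371.

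Hypoxia can raise Vegfa, and 15 genes of oxygen sensing and its targets were tested. There was 1 that fell and 0 that rose, against 2.09% and 2.24% of all genes. The median log2 change was 0.13. It was positive for 11 of the 15 genes (73.3%) and negative for 4, against 58.5% positive over all genes. In 5 (33.3%) every cKO library lay above every control, against 18.0% of all genes. In 2 (13.3%) every cKO library lay below, against 12.0%. The part of hypoxia in the Vegfa values was not tested. Bnip3, a mitophagy gene induced by low oxygen, fell to 29.8 ± 0.97 FPKM in cKO, against 41.0 ± 1.97 FPKM in control (SD, n = 3 each), with an adjusted p of 0.0275; it shares 504 exon bases with Gm45507 on the opposite strand. Over the 4 lists of other vessel genes together, 73 of 80 genes were tested. Of these 6 rose (8.22%) and 4 fell, against 2.24% and 2.09% of all genes. These calls varied with the libraries included, since 0 rose without cKO 1, without control 1 or without control 2, 2 rose without cKO 2 and 3 without control 3.

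**Figure D4:**
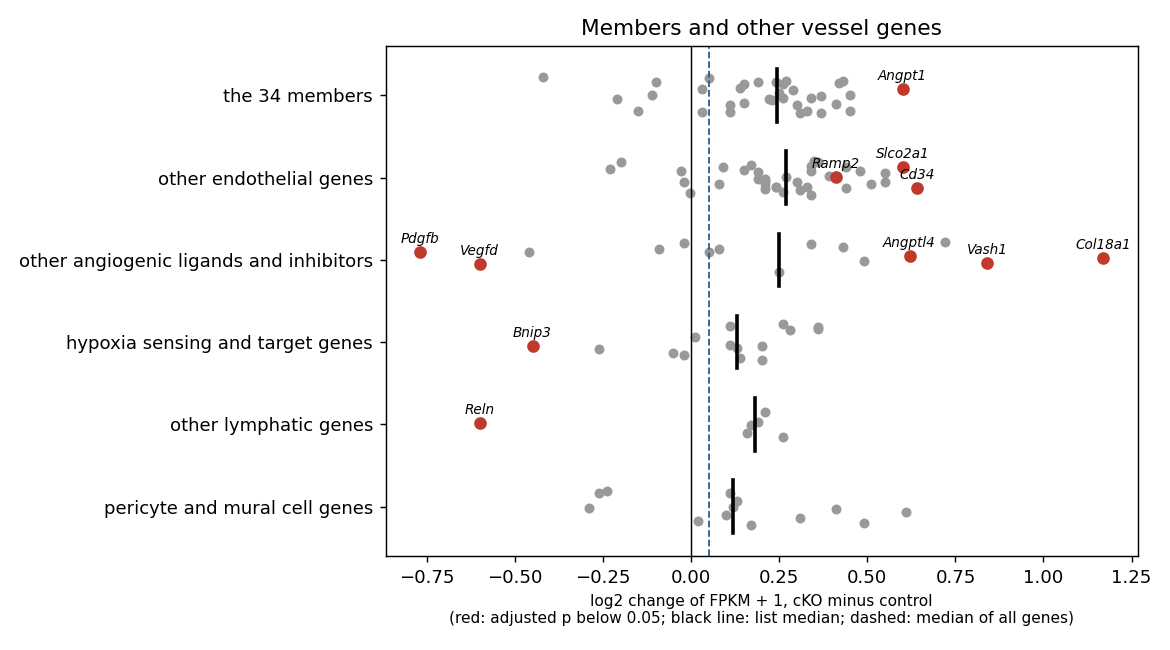
Log2 change (cKO minus control) of each tested gene in the members and in 5 other lists, with red points at an adjusted p below 0.05, black lines at list medians and a dashed line at the median of all genes, 0.05. Medians are 0.25 for the members and 0.27 for other endothelial genes, and Col18a1 lies farthest right at 1.17.

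Of 13 pericyte and mural cell genes 0 passed, with a median log2 change of 0.12. The most abundant were the contractile genes Acta2, at 545 ± 108 FPKM in cKO and 638 ± 82.7 FPKM in control, and Tagln, at 227 ± 30.6 FPKM in cKO and 270 ± 15.0 FPKM in control (SD, n = 3 each). Both are shared with smooth muscle of the stroma and theca. At an unadjusted p below 0.05 there were 4 higher (30.8%) and 1 lower, against 14.5% and 9.80% of all genes.

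The cKO libraries were not equally far from the controls. Relative to the control mean, the median member was higher by 0.29, 0.28 and 0.09 on the log2 scale in cKO 1, cKO 2 and cKO 3, against 0.08, -0.01 and 0.05 for the median of all genes. Of the 34 members, 24 lay above every control in cKO 1, 27 in cKO 2 and 16 in cKO 3. Of the 6 libraries cKO 1 was the highest for 18 members, and control 1 was the lowest for 15. These counts by library were not made over all genes, so they have no background share beside them. With control 3 and cKO 3 both left out, the median change of the members was 0.27 and 0 members passed. Library titles carry numbers in 2 ranges, one with all 3 controls and cKO 1 and another with cKO 2 and cKO 3, and the labels do not say what they mean. Using libraries of the range with controls alone, the median change was 0.29 with 27 of 34 members positive, and Angpt1 had a change of 0.68 at an adjusted p of 0.112, where the spread of the single cKO library is taken to equal that of the controls. The other range holds no control.

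**Figure D5:**
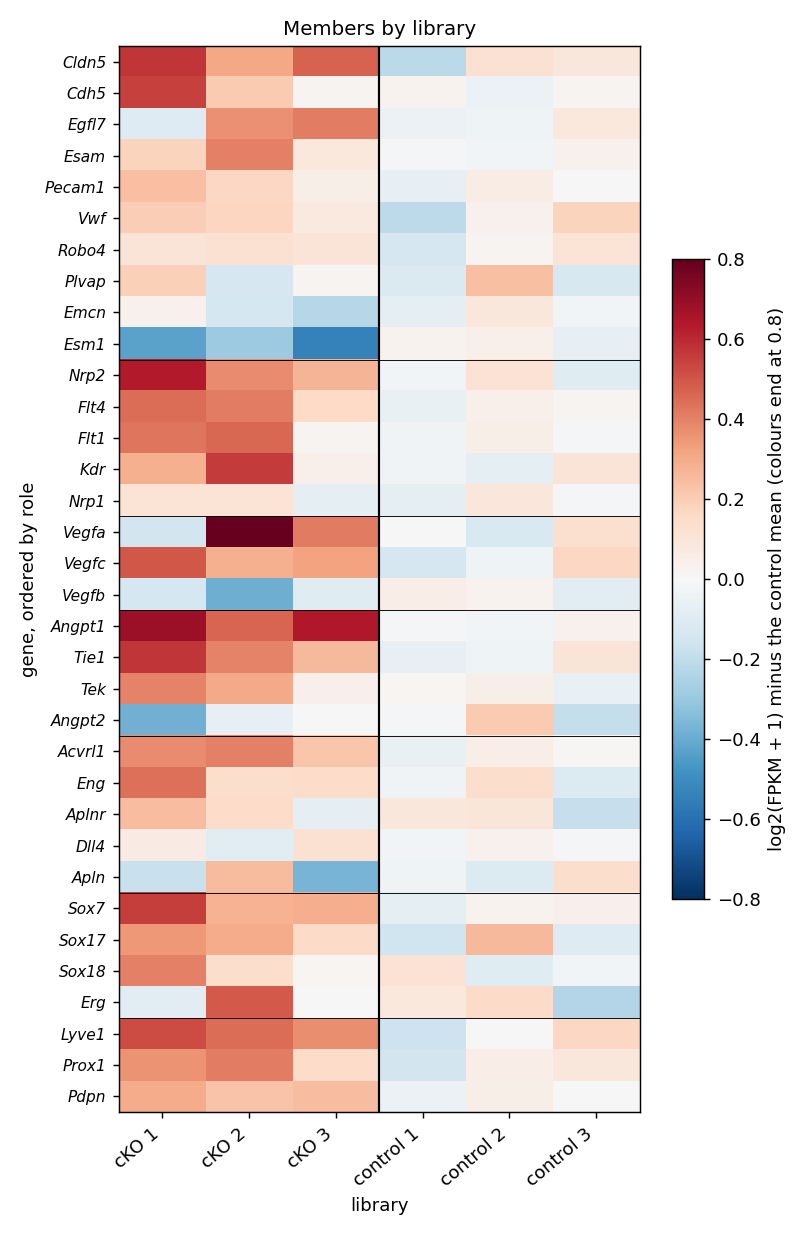
Each member's log2(FPKM + 1) minus its control mean, by library, with cKO left of control and genes ordered by role. Red cells dominate in cKO 1 and cKO 2, where the median member is at 0.29 and 0.28, and cKO 3 is paler, at 0.09.

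Genes of other ovarian cells also differed between the groups. The summed level of 8 stroma fibroblast genes was 1822, 1322 and 1372 FPKM in cKO and 1103 to 1192 FPKM in control, and Pdgfra and Tcf21 of that list rose by 0.81 and 0.55 on the log2 scale while Fbln1 fell by 0.76. The summed level of 13 granulosa cell genes was 2183 to 2635 FPKM in cKO and 3431 to 4412 FPKM in control, where Fst, Gja1, Inhbb and Hsd17b1 were the genes that fell with the smallest p, by 1.85, 1.02, 1.49 and 1.36, and 5 of 13 fell in all. That of 12 oocyte genes was 1754 to 2725 FPKM in cKO and 1291 to 1436 FPKM in control, with 4 that rose (Zp2, Figla, Padi6 and Zp3). The shares of all genes were 2.24% that rose and 2.09% that fell. Leaving out cKO 1, control 1 or control 2 left 0 calls in the granulosa, oocyte and stroma lists, and leaving out cKO 2 left 0 in the granulosa and stroma lists and 3 in the oocyte list. Without cKO 3 there were 5 granulosa genes that fell, 2 oocyte genes that rose and 1 stroma gene that rose with 0 that fell, and without control 3 there were 7, 2 and 1 with 1 stroma gene that fell. Of 8 theca genes 0 passed, although 2 (25%) were higher at an unadjusted p below 0.05 in limma, against 14.5% of all genes. The median log2 change of the theca list was 0.54. Cyp11a1, 1 of those 2 genes, measured 192 ± 44.0 FPKM in cKO and 115 ± 30.7 FPKM in control (SD, n = 3 each). Hsd3b1, the most abundant of the list, was not 1 of them. It measured 1290 ± 149 FPKM in cKO and 1335 ± 168 FPKM in control (SD, n = 3 each), a log2 change of -0.05. Red blood cell genes, also with 0 of 5 passing at either p, summed to 417 to 2177 FPKM in cKO and 1058 to 3477 FPKM in control, nearly all of it from Hba-a2 and Hba-a1. FPKM is relative to the library total, to which all these cells contribute. The part of these shifts in the members' changes was not tested.

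Depth was estimated at 19600000 to 24900000 fragments per library, and 13170 to 13649 genes reached 1 FPKM. Over all genes 334 rose and 312 fell, or 254 and 577 with libraries centred on their median and 270 and 421 after quantile normalisation. Under these 2 scalings, and with libraries centred on reference genes, the median change of the members stayed positive, at 0.18, 0.19 and 0.27, with 26, 26 and 29 of 34 members positive. Of 15 reference genes 0 passed. At an unadjusted p below 0.05 in limma 2 were higher (13.3%) and 3 lower, against 14.5% and 9.80% of all genes. The most abundant was Ppia, 1 of the 3 lower, at 1729 ± 91.2 FPKM in cKO and 2209 ± 60.1 FPKM in control (SD, n = 3 each). Rplp0, next in abundance and not among those counted, measured 1665 ± 258 FPKM in cKO and 1775 ± 119 FPKM in control (SD, n = 3 each). The adipose tissue list, of 7 genes with 4 tested, summed to 12.5 to 14.8 FPKM in cKO, against 8.72, 9.96 and 25.7 FPKM in control 1 to 3. Its member Plin1 rose by 0.91, but the 3 other genes tested had negative changes, and the list median was -0.52.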

How the data were processed

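The deposited table holds FPKM per Ensembl gene for 6 libraries, 1 column each. TopHat2 2.0, Cufflinks 2.0 and mm10 appear in the submitters' processing notes without a role; annotation, strand setting and scaling of libraries are not stated there. Groups follow the genotype label. Each library is a pool of animals, so p-values measure the spread between pools.

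Values were tested on the log2(FPKM + 1) scale with limma 3.58.1 in R 4.3.3 (lmFit, eBayes with a mean-variance trend) for 14934 genes with a mean of at least 0.5 FPKM, with Benjamini-Hochberg adjustment across all of them. The procedure was checked on simulated data. Confidence intervals are at 95% and unadjusted.

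The members and lists were chosen with earlier results of these data known. Every member is named. The value in every library is given for members with an unadjusted p below 0.05 or with the highest or second highest mean of their role group. Of each other list, up to 4 passing genes with the smallest p are named, or the 2 most abundant where none passed. Vash1, the fifth by p in its list, is outside this rule and was named after its values were seen.

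Depth was estimated from low FPKM values of genes with 1 transcript of at least 1500 bases, each read as 1 fragment, and no interval was built on it. Positions and exon overlaps come from GENCODE M21 by Ensembl identifier. Alternatives were other pseudocounts (0.1 and 0.5), filters, scalings, weights and sets of libraries. The floxed gene is not reported here.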

Additional observations from a re-analysis of the deposited data

How the results depend on the processing

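Among 17 alternatives, 25 of 34 members kept the sign of their change in all, including Angpt1, whose change ranged from 0.51 to 0.68. Angpt1 passed in 10 of them; its adjusted p was 0.0773 without a filter on low values and 0.0776 with control 3 and cKO 3 left out together, and ranged from 0.00801 to 0.135 overall.

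Counts of members that rose were 5 with array weights, which added Lyve1, Pdpn, Tie1 and Vegfc, with 1 that fell (Esm1), 0 without a filter, 0 with control 3 and cKO 3 left out and 0 for 3 controls against cKO 1. Leaving out 1 library gave 0 to 2. The median change was 0.18 with libraries centred on the median and 0.19 to 0.29 with 1 library left out.

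For all genes, 4 rose and 24 fell without a filter, 1041 and 743 with array weights, 22 and 1 for 3 controls against cKO 1, and 204 rose with control 3 and cKO 3 left out, while 577 fell with median centring. With 1 library left out 0 to 307 rose and 2 to 353 fell. In those fits 2266 to 3633 genes had an unadjusted p below 0.05 in limma. Other vessel lists together gave 1 and 0 without a filter, 15 rose with array weights, 2 fell with reference centring, 1 fell with control 3 and cKO 3 left out, 0 and 0 for 3 controls against cKO 1, and 0 to 6 rose and 0 to 4 fell with 1 library left out.

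Signs turned for 9 members that passed nowhere. Plvap was -0.05 after quantile normalisation, -0.04 with median centring, -0.06 with array weights, -0.04 with control 3 and cKO 3 left out, and -0.05 to 0.15 with 1 library left out. Dll4 was -0.09, -0.03 and -0.02 with quantile normalisation, median centring and control 3 with cKO 3 left out and -0.01 to 0.09 with 1 library left out. Robo4 was -0.02 after quantile normalisation. Nrp1 was -0.02 with median centring and -0.01 with array weights. Erg was -0.02 with array weights, -0.09 for 3 controls against cKO 1 and -0.04 to 0.25 with 1 library left out. For 3 controls against cKO 1, Emcn was 0.03, Egfl7 -0.10 and Vegfa -0.14. Apln was 0.11 with control 3 and cKO 3 left out and -0.28 to 0.04 with 1 library left out. The cause of these changes was not tested.

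No paired analysis was possible because replicate numbers are absent from the labels. Depth limits low members most, Esm1 above all.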
